A study of Mus musculus with 2 samples.

Results

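A set of 40 genes of the mitotic spindle, the kinetochore and the machinery that drives cells through division was followed across the cell classes of the mouse pallium. The 40 members were given as a list of symbols, and all 40 were found among the 32285 genes of the deposited tables. They fall into 8 roles: 4 cyclin and Cdk1 genes, 5 mitotic and checkpoint kinases, 4 genes of the chromosomal passenger complex, 2 shugoshins, 8 centromere and kinetochore genes, 9 kinesins, 6 genes of spindle assembly, midzone and cytokinesis, and 2 that activate the anaphase-promoting complex. The study sorted cells by a label of DNA made at embryonic day 12. Wild-type mouse embryos were marked on that day with EdU, a thymidine analogue built into newly made DNA, and killed at postnatal day 3. Pallial tissue, the dorsal forebrain that includes the cerebral cortex, was pooled and dissociated, and viable cells in the brightest 10% of EdU signal were sorted for droplet sequencing of RNA 3′ ends. All shares of cells below are therefore shares of these sorted cells, not of the whole pallium. The series holds 2 such libraries, replicates 1 and 2, of a single group, with no treatment or control. Comparisons are therefore between classes of cells inside the same libraries. The labels leave it unsaid whether each replicate had its own pool of animals. Every p-value below reflects how far differences between groups of cells varied between these 2 libraries alone, and that variation may be technical.

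In a dividing cell, cyclins A and B switch on Cdk1, which starts mitosis. Kinetochores then assemble on centromeres marked by the histone variant Cenpa and are captured by spindle microtubules, with the Ndc80 complex (Ndc80, Nuf2, Spc24 and Spc25) as the main link. The kinases Bub1, Bub1b and Ttk hold the cell in metaphase until all chromosomes are attached, and Cdc20 and Ube2c then let the anaphase-promoting complex destroy the B cyclins. Kinesins, Prc1 and Anln build the spindle midzone and the cleavage furrow that part the daughter cells. Most of these genes are transcribed late in the cell cycle, largely through CCAAT boxes and the cell cycle homology region (CHR) of their promoters, while genes of DNA replication peak earlier. In the postnatal pallium, oligodendrocyte precursor cells (OPCs), astroglial progenitors, microglia, intermediate progenitors with Eomes and GABAergic neuroblasts still divide, while neurons do not.

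Promoters of 7 members are shown first. Plk1 and Cdk1 drive mitosis. In the comparison within the cell cycle further on, Cdc20, Cenpa, Ube2c and Ccnb1 are among the 5 with the largest difference. Kif15 was lower there on average. Whether these promoters bear on that comparison was not tested. Each is the run of 200 bases before the RefSeq transcription start (GRCm38.p6), 5′ to 3′ on the gene's strand. Capitals mark CCAAT, or its reverse ATTGG, and the CHR, searched as TTTGAA or TTTAAA on both strands (TTCAAA is the reverse of the former).
Ccnb1, chr13:100786487-100786686, minus strand: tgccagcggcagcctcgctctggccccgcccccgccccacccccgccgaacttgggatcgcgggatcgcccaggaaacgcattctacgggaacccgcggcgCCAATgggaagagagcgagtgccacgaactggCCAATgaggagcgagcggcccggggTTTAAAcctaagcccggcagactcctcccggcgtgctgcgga
Cdc20, chr4:118437344-118437543, minus strand: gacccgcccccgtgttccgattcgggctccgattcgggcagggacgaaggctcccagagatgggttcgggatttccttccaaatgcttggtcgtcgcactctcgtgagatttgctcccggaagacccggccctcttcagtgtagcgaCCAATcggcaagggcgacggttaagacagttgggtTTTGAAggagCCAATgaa
Ube2c, chr2:164769729-164769928, plus strand: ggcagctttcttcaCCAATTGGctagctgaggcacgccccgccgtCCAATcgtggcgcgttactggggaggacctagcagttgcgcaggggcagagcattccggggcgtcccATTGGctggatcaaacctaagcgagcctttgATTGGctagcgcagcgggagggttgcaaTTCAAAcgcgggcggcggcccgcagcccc
Plk1, chr7:122159235-122159434, plus strand: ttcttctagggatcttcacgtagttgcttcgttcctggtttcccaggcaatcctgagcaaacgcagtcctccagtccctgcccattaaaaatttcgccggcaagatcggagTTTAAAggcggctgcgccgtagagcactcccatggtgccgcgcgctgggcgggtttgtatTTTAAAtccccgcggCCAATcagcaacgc
Cenpa, chr5:30666686-30666885, plus strand: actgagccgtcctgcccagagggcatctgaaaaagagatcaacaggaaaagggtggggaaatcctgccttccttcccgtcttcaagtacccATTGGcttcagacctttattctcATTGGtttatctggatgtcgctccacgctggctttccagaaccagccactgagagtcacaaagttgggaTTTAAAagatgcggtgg
Cdk1, chr10:69352913-69353112, minus strand: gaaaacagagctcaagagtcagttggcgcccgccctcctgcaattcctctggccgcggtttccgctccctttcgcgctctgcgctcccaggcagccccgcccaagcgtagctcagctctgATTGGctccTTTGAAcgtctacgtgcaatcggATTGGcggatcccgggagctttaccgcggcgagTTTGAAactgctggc
Kif15, chr9:122950881-122951080, plus strand: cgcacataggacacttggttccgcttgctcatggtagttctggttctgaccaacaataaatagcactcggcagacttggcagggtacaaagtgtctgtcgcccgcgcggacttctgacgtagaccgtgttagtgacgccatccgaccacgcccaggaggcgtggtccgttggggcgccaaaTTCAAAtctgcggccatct
Cyclin B1 (Ccnb1), the Cdc20 activator, the Ube2c ubiquitin-conjugating enzyme, the Plk1 kinase and Cenpa hold both motifs. Their CCAAT boxes begin between 8 and 186 bases before the start, and their CHRs between 17 and 89. These distances hold for the RefSeq start only. By the GENCODE M21 annotation used further on, some of these genes start inside the run shown, as Cenpa at 30666777 and Ccnb1 at 100786570. Of the 5 CCAAT matches in Ube2c, the pair farthest from the start overlaps. Cdk1 holds 2 CCAAT boxes and 2 CHRs, and Kif15, a spindle kinesin, a CHR 19 bases before the start and no CCAAT box.

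The RefSeq table held 37 promoters of 34 members, searched over 250 bases before to 50 after the start. It had no entry for Aurkb, Ccna2, Incenp, Kif20a, Spc24 and Tpx2. A CCAAT box was present in 28 of the 37 (75.7%), against 37.4% of all 32851 promoters in that table. A CHR was present in 31 (83.8%) against 27.6%, and both motifs in 64.9% against 10.7%. The only overlap between a CCAAT and a CHR match in the members counts under both. An E2F motif (TTTCCCGC, TTTGGCGC, TTTCGCGC or TTTGCCGC, both strands), found in many promoters of replication genes, was present in 5.41% of the member promoters and 2.26% of all, the former in Cdk1 and Kif15. Nuf2 and Nusap1 held none of these motifs in this window. These are matches of letters, not measured sites.

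Barcodes with at least 500 detected genes and at most 10% mitochondrial UMIs (unique molecular identifiers, 1 per captured RNA molecule) were kept: 11228 of 13858 in replicate 1 and 10965 of 14513 in replicate 2. Their median depth was 7542.5 and 8523 UMIs. The libraries share 62 barcode sequences, 40 of them kept in both. Scrublet marked 862 and 778 kept barcodes as doublets, and these stay in the values below unless said otherwise. The members together held 184431 UMIs in replicate 1 and 203094 in replicate 2, or 1999 and 1985 CPM (UMIs per 1000000 UMIs of the same cells). A single member held between 352 and 19076 UMIs in a library. Cells were called dividing where they had at least 2 UMIs of Mki67 and Top2a, 2 proliferation genes outside the list: 2068 cells (18.4%) and 2156 cells (19.7%). These dividing cells carried 92.0% and 92.5% of all member UMIs.

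Cells were classed by gates on genes that are not members. OPCs had at least 2 UMIs of Pdgfra, GABAergic cells of Dlx1 and Dlx2, Eomes progenitors of Eomes, neurons of Neurod2 and Neurod6, and microglia of C1qa. Astroglia had at least 5 UMIs of Slc1a3 and passed no other gate. Replicates 1 and 2 held 3865 and 4001 OPCs, 2592 and 2471 astroglia, 1205 and 1185 GABAergic cells, 121 and 181 Eomes progenitors, 965 and 941 neurons, and 137 and 150 microglia. Another 475 and 534 barcodes passed several gates and were left out of the classes, and 1868 and 1502 passed none. A gate is a cut through a range: 31.4% and 35.4% of the Eomes progenitors sat exactly at the cut of 2 UMIs, against 9.88% and 8.37% of the OPCs and 15.4% and 11.2% of the GABAergic cells.

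The gates were checked against lists of 6 markers each, which include the gate genes. The OPC list summed to 4853 and 4875 CPM in OPCs and to 1076 and 1044 CPM in astroglia, the next highest class. The astroglial list stood at 6403 and 6915 CPM in astroglia and at 1083 and 1173 CPM in OPCs. The GABAergic list reached 2380 and 2570 CPM in GABAergic cells and at most 73.7 CPM in any other class. Neurons held 1458 and 1532 CPM of the neuron list and Eomes progenitors 841 and 1061 CPM, so these classes overlap in their markers. In Eomes progenitors 1 of their own 6 markers had no UMI in either library. No marker of the own list was at 0 in the other classes.

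GABAergic cells had the highest summed level of the members and neurons the lowest. The sum was 5524 and 5538 CPM in the GABAergic cells of replicates 1 and 2, a mean of 5531 ± 10.3 CPM (SD, n = 2 libraries here and below). Eomes progenitors followed with 2888 and 2348 CPM (2618 ± 382), then astroglia with 2098 and 1990 CPM (2044 ± 76.4). OPCs had 1372 and 1496 CPM (1434 ± 87.8), microglia 1430 and 1243 CPM (1336 ± 132) and neurons 398 and 508 CPM (453 ± 77.4). The libraries of neighbouring classes in this order did not overlap, except OPCs and microglia, which differed by less than their spread. With classes set by lists of 6 markers in place of single genes, Eomes progenitors (4760 CPM) stood above GABAergic cells (4223 CPM), and astroglia (1196 CPM) below OPCs (1511 CPM), so the order of these neighbours depends on how cells are classed. GABAergic cells held 28.0% and 27.8% of all member UMIs with 10.1% and 9.95% of all UMIs.

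**Figure D1:**
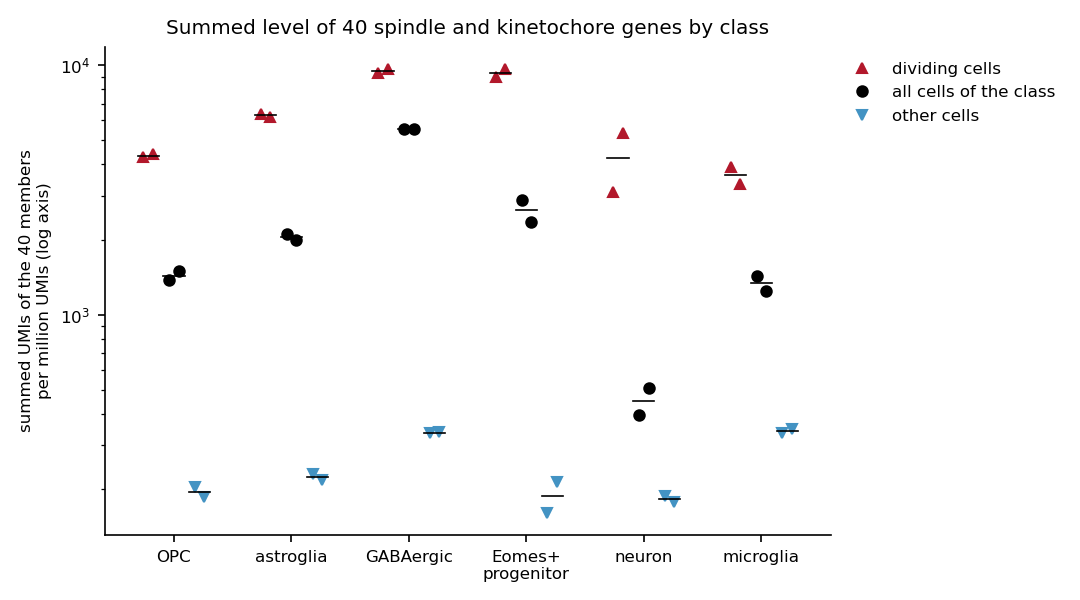
Summed level of the 40 members (CPM, log axis) in the dividing cells, all cells and other cells of 6 classes, with 1 point per library and a line at the mean of both. All GABAergic cells sit at 5524 and 5538 CPM and neurons at 398 and 508 CPM, while the cells not called dividing lie between 161 and 350 CPM in every class.

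Among the sorted cells, the classes also differed in how many were called dividing. Dividing cells made up 40.1% of the GABAergic cells in replicate 1 (exact Clopper-Pearson 95% interval 37.3% to 42.9%) and 40.5% in replicate 2 (37.7% to 43.4%). In OPCs the share was 18.7% (17.4% to 19.9%) and 21.1% (19.9% to 22.4%), in astroglia 18.4% and 18.7%, in microglia 21.2% and 24.7%, and in Eomes progenitors 19.8% and 13.3%. In neurons, the class that has left the cycle and serves as background, it was 3.11% (2.11% to 4.41%) and 2.87% (1.90% to 4.15%). With these gates, the GABAergic interval lay above those of the other 5 classes in both libraries. With classes from the marker lists this lead was lost. Then 211 of 949 and 244 of 928 GABAergic cells were dividing, against 125 of 258 and 92 of 266 Eomes progenitors. In OPCs it was 685 of 3658 and 765 of 3683, and in microglia 39 of 173 and 47 of 181. The lists and the gates do not class the same cells. The lists left 686 and 666 dividing barcodes without a class. The gates left 123 and 85 that passed none and 181 and 194 that passed several. Dividing GABAergic cells of the gates held 379 and 377 CPM of the Eomes progenitor list. Whether the lists moved such cells to the Eomes progenitors was not tested. Intervals and limits cover counting error only. The share depends on depth, so cells were also thinned to 2000 UMIs each, which left out 104 and 49 GABAergic cells, 240 and 205 OPCs and 103 and 46 neurons. It then came to 30.7% and 31.1% in GABAergic cells, 9.02% and 10.5% in OPCs, 9.69% and 9.21% in astroglia, 12.6% and 8.29% in Eomes progenitors, 5.51% and 7.38% in microglia, and 1.28% and 1.23% in neurons.

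Cells gated as neurons but called dividing were few, 30 and 27, and Scrublet marked 12 and 9 of them as doublets. Their astroglial marker list stood at 2210 and 2404 CPM and their OPC list at 1062 and 871 CPM, above their neuron list (627 and 556 CPM). In replicate 2 the lists of 5 endothelial and 5 mural markers also reached 820 and 584 CPM in these 27 cells. The part of these markers in the neurons' member level was not tested. Without doublets the neurons' sum was 295 and 409 CPM.

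Cells that were not called dividing had low levels in every class. The sum was 204 and 186 CPM in such OPCs, 230 and 219 CPM in astroglia, 336 and 339 CPM in GABAergic cells, 161 and 214 CPM in Eomes progenitors, 187 and 177 CPM in neurons and 336 and 350 CPM in microglia. The median number of different members seen was 1 in a cell of this kind (2 in microglia). In a dividing cell it was 18 in OPCs in both libraries, 23 in astroglia, 27 and 29 in GABAergic cells and 28 and 30 in Eomes progenitors.

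Against neurons, the members were higher in every other class. In edgeR's quasi-likelihood test on counts summed per library and class, 40 of 40 members were higher in OPCs, where 32.4% of all 14936 genes tested were called higher (a call is an adjusted p of at most 0.05 over all of these genes). All 40 were higher in astroglia (36.1% of all genes), in GABAergic cells (23.1%) and in microglia (33.8%), and 39 in Eomes progenitors (7.29%). Taken library by library, the log2 difference of Ect2 between microglia and neurons was 2.11 in replicate 1 and -0.0091 in replicate 2. The median log2 fold change of the members was 1.59 in OPCs, 2.20 in astroglia, 3.66 in GABAergic cells, 2.35 in Eomes progenitors and 1.73 in microglia, while that of all genes lay between -0.10 and 0.02. The exception in Eomes progenitors was Anln, the anillin of the cleavage furrow, at 5.98 and 6.49 CPM against 2.92 and 4.09 CPM in neurons (log2 fold change 0.76 ± 0.39 SE, edgeR adjusted p = 0.217).

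The highest class was the same for nearly every member. Of the cyclins and their kinase, Cdk1 stood at 198 and 174 CPM in GABAergic cells, 58.7 and 60.3 CPM in OPCs and 14.9 and 19.5 CPM in neurons. Ccnb1 stood at 150 and 147 CPM in GABAergic cells and 39.3 and 40.8 CPM in OPCs, and Ccna2, cyclin A2, at 128 and 121 CPM against 33.5 and 39.2 CPM. In the thinned cells, Cdk1 was seen in 19.6% and 18.1% of GABAergic cells, 6.54% and 6.64% of OPCs and 1.28% and 2.23% of neurons. For each of these genes both GABAergic libraries were above both OPC libraries, and those above both neuron libraries.

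Among the mitotic and checkpoint kinases, Plk1 was at 55.1 and 47.4 CPM in GABAergic cells and at 27.7 and 26.1 CPM in astroglia. Bub1 and Bub1b, which carry the spindle checkpoint signal, were at 51.3 and 55.4 CPM and at 46.4 and 51.9 CPM in GABAergic cells. In OPCs they were at 16.3 and 18.6 CPM and at 11.6 and 12.6 CPM. Of the chromosomal passenger complex, which corrects faulty attachments, Cdca8 (borealin) stood at 322 and 309 CPM in GABAergic cells and 23.7 and 33.9 CPM in neurons. Birc5 (survivin) stood at 315 and 296 CPM against 21.3 and 23.0 CPM, and Incenp, its scaffold, at 132 and 130 CPM against 15.1 and 17.6 CPM. The shugoshins Sgo2a and Sgo1, which guard centromere cohesion, were at 82.3 and 103 CPM and at 56.3 and 56.8 CPM in GABAergic cells, against 22.2 and 25.2 CPM and 14.2 and 14.0 CPM in OPCs.

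Of the centromere and kinetochore genes, Cenpf, an outer kinetochore protein, was at 465 and 544 CPM in GABAergic cells, 206 and 199 CPM in astroglia and 34.6 and 46.4 CPM in neurons. Cenpa was at 335 and 322 CPM in GABAergic cells and 70.5 and 70.1 CPM in OPCs. Spc24, of the Ndc80 complex, was at 200 and 172 CPM against 64.2 and 63.4 CPM. Among the kinesins, Kif11, which pushes the spindle poles apart, was at 118 and 142 CPM in GABAergic cells and 33.5 and 40.7 CPM in OPCs, Kif15 at 88.4 and 105 CPM against 29.4 and 36.1 CPM, and Kif22, a chromosome arm kinesin, at 85.2 and 84.8 CPM against 24.6 and 24.5 CPM. The pattern was alike for the spindle assembly factor Tpx2 (208 and 227 CPM in GABAergic cells, 55.0 and 67.6 CPM in OPCs), the midzone bundler Prc1 (231 and 239 CPM, 54.8 and 60.7 CPM) and the microtubule binder Nusap1 (196 and 177 CPM, 50.4 and 52.9 CPM). Ube2c stood at 686 and 619 CPM in GABAergic cells, 178 and 162 CPM in astroglia, 110 and 111 CPM in OPCs and 28.4 and 44.7 CPM in neurons. Cdc20 stood at 130 and 119 CPM in GABAergic cells, 55.9 and 50.9 CPM in astroglia and 30.2 and 30.1 CPM in OPCs. Across these roles, no OPC library reached a GABAergic one.

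**Figure D2:**
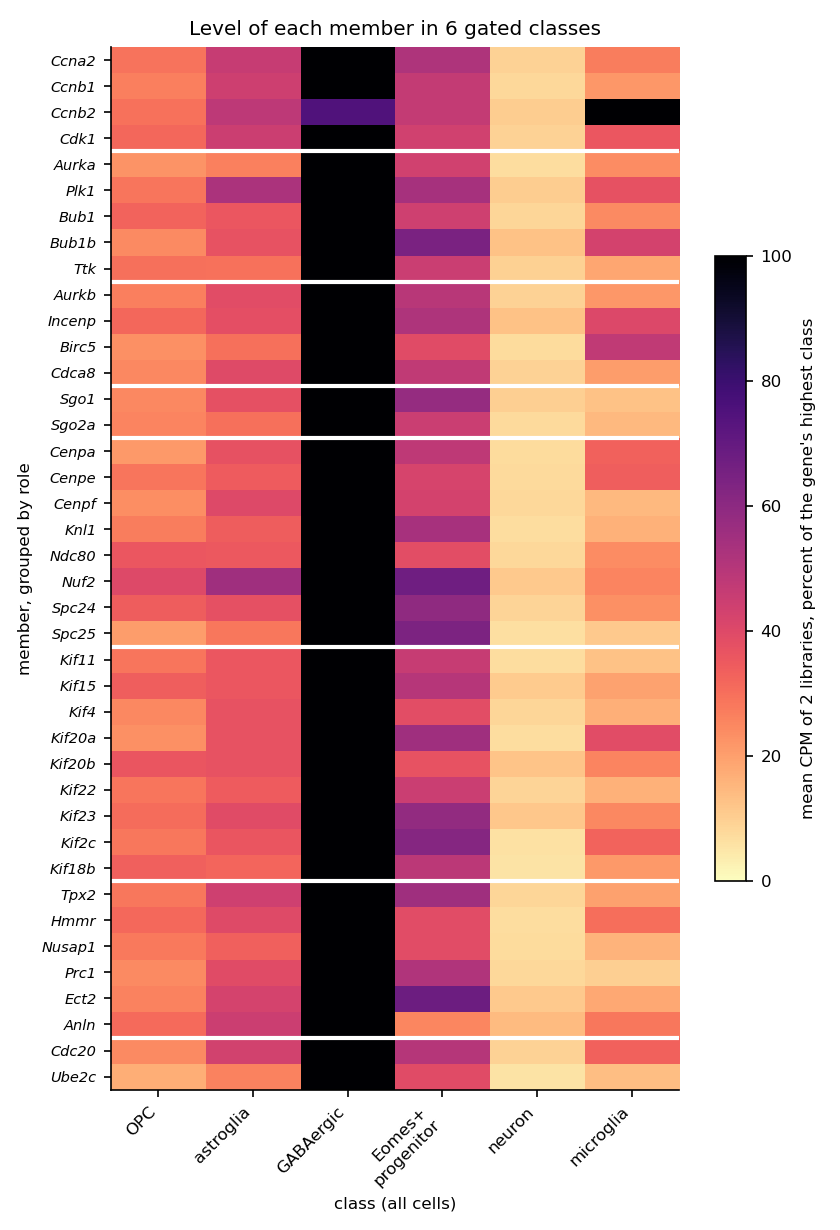
Level of each member in all cells of 6 classes, as the mean CPM of 2 libraries in percent of the gene's highest class, with rows grouped by role. GABAergic cells hold the highest level of every member except Ccnb2, whose highest level is in microglia.

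The exception was Ccnb2, cyclin B2, singled out after its values were seen. It stood at 104 and 89.0 CPM in microglia, 75.8 and 68.5 CPM in GABAergic cells, 28.3 and 28.6 CPM in OPCs and 8.61 and 11.7 CPM in neurons. Both microglial libraries were above both GABAergic ones. Its log2 fold change against neurons was 3.74 ± 0.16 in microglia (edgeR adjusted p = 3.70e-17), the largest of the 40 members there. Microglia not called dividing still held 41.9 and 48.6 CPM, while such cells of the other classes held 3.31 to 8.15 CPM. The smallest microglial difference was that of Prc1, at 26.2 and 20.5 CPM against 14.8 and 23.6 CPM in neurons, where the libraries overlap (0.75 ± 0.23, edgeR adjusted p = 0.00599). That call is lost when scaling to total UMIs replaces edgeR's TMM scaling (edgeR adjusted p = 0.356).

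Dividing cells of the lineages were then set against each other, so that the share of cells called dividing no longer enters. Dividing GABAergic cells had more member RNA than dividing OPCs for all 40 members (26.8% of all 13093 genes tested were called higher and 33.6% lower, median log2 fold change 1.16 against -0.07 for all genes). The summed level was 9332 and 9631 CPM in 483 and 480 dividing GABAergic cells and 4284 and 4399 CPM in 721 and 846 dividing OPCs. Per dividing cell this came to 104 and 114 member UMIs in GABAergic cells and 60.1 and 66.6 in OPCs, although the dividing GABAergic cells had fewer UMIs in all (median 10456 and 11159, against 12808 and 13168.5). The groups did not overlap on either scale. At least 5 UMIs of Mki67 and Top2a were held by 410 of the 483 and 422 of the 480 GABAergic cells. Among the OPCs, 451 of the 721 and 544 of the 846 held as many. A larger part of the OPCs thus passed the mark narrowly, and the comparison with 5 UMIs required is given further on. 

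Ube2c had the largest difference between dividing GABAergic cells and OPCs, with 1157 and 1075 CPM against 345 and 328 CPM (log2 fold change 1.89 ± 0.08, edgeR adjusted p = 6.05e-21). It was seen in 84.3% and 83.1% of these GABAergic cells and 62.6% and 58.3% of the OPCs. Spc25, the partner of Spc24 in the Ndc80 complex, was at 314 and 306 CPM against 109 and 112 CPM (1.65 ± 0.07). Aurka, the kinase that matures spindle poles, was at 93.8 and 79.3 CPM against 31.4 and 30.9 CPM (1.63 ± 0.09). Cenpa was at 558 and 554 CPM against 211 and 197 CPM (1.61 ± 0.06), and Cdc20 at 218 and 203 CPM against 87.5 and 83.9 CPM (1.46 ± 0.07). For these 5 genes both GABAergic libraries stood above both OPC libraries. Nuf2 had the smallest difference, 91.0 and 99.0 CPM against 65.5 and 73.9 CPM (0.61 ± 0.08, edgeR adjusted p = 2.54e-08).

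Dividing astroglia stood between these lineages. Their summed level was 6371 and 6196 CPM, or 96.0 and 97.5 member UMIs per cell, in 477 and 463 cells, above both OPC libraries and below both GABAergic ones. Against OPCs 37 members were higher and none lower (27.1% of all genes called higher and 28.5% lower, median log2 fold change 0.55). The largest differences were those of Cdc20, at 168 and 159 CPM against 87.5 and 83.9 CPM (1.06 ± 0.07), and Plk1, at 87.4 and 84.5 CPM against 45.9 and 45.4 CPM (1.04 ± 0.08). Cenpa (381 and 355 CPM against 211 and 197 CPM), Cenpf (632 and 628 CPM against 354 and 379 CPM) and Ccnb1 (210 and 202 CPM against 125 and 121 CPM) followed with log2 fold changes of 0.98, 0.92 and 0.88. Ndc80 (0.13 ± 0.09), the kinesin Kif18b (0.12 ± 0.18) and the checkpoint kinase Ttk (0.21 ± 0.12) did not pass.

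The comparison of astroglia with OPCs depends on how cells are classed and on thinning. With classes set by the 6-marker lists in place of single genes, 17 members were higher and 3 lower, at a median of 0.15. With cells thinned to 5000 UMIs, 20 were higher and none lower. Thinning drops cells under 5000 UMIs and calls classes and dividing cells anew, so it changes more than depth. It left 211 and 266 dividing astroglia and 415 and 508 dividing OPCs. The share of all genes called was not set beside these counts. Dividing astroglia were the deepest of these lineages, with medians of 14721 and 15390 UMIs, and held 1188 and 1194 CPM of the OPC marker list. Their own list stood at 3285 and 3852 CPM in dividing cells, below its level in all astroglia.

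**Figure D3:**
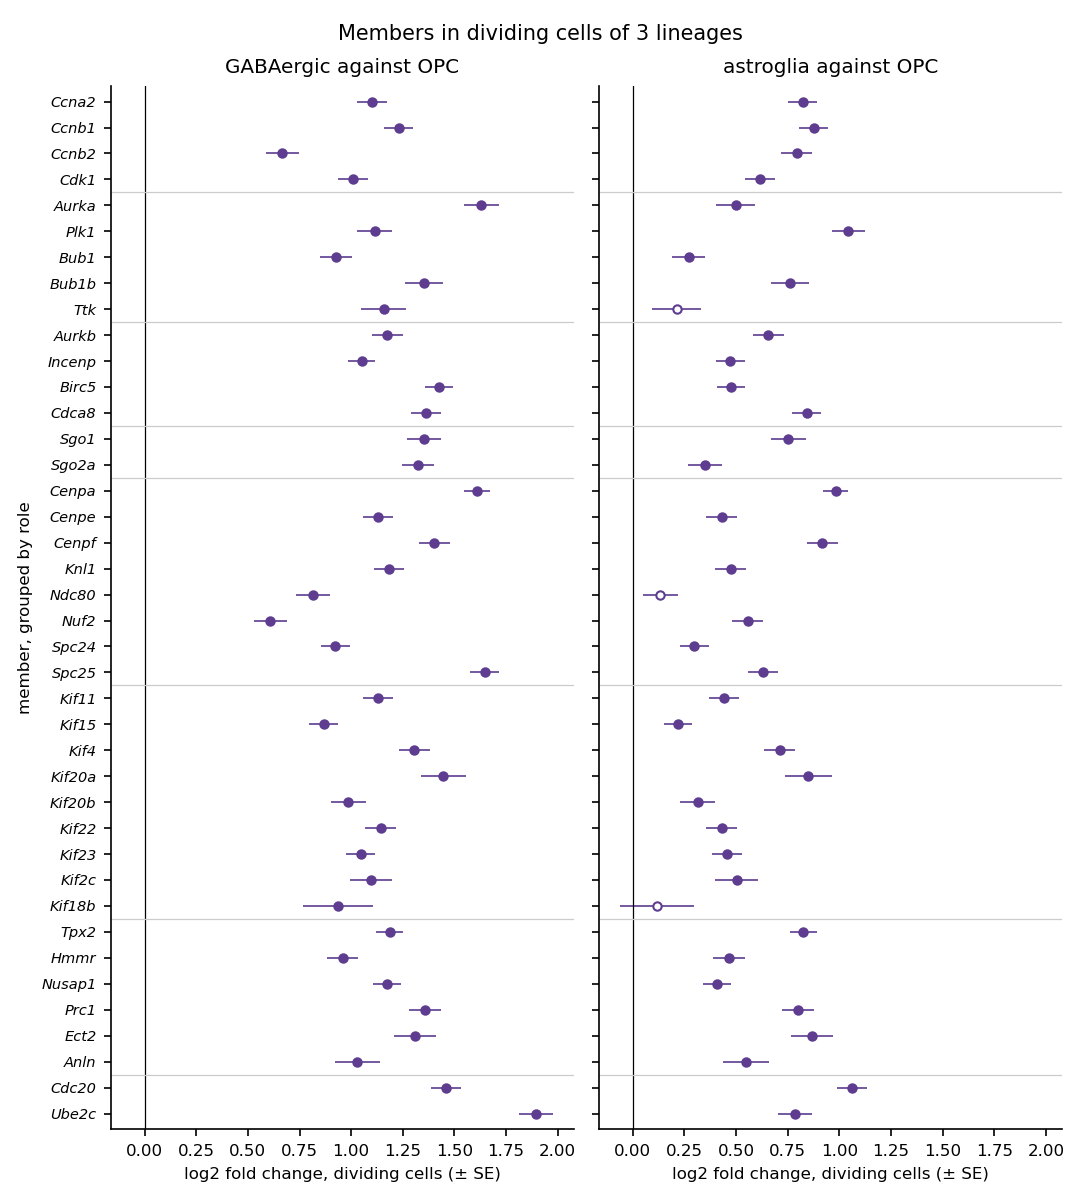
Log2 fold change of each member in dividing cells, GABAergic cells against OPCs (left) and astroglia against OPCs (right), with bars of 1 SE from edgeR and rows grouped by role. Filled points passed the test; all 40 pass on the left, while Ttk, Ndc80 and Kif18b are open on the right.

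Dividing GABAergic cells exceeded dividing astroglia in 37 members, with none lower (26.1% of all genes called higher and 30.2% lower, median 0.59). Aurka led, at 93.8 and 79.3 CPM against 42.0 and 38.6 CPM (1.13 ± 0.09), followed by Ube2c, at 1157 and 1075 CPM against 547 and 510 CPM (1.11 ± 0.08). Spc25 (1.01 ± 0.07), Sgo2a (0.97 ± 0.08) and Birc5 (0.95 ± 0.07) came next, the last at 535 and 515 CPM against 292 and 264 CPM. Nuf2 (0.05 ± 0.08), Plk1 (0.07 ± 0.08) and Ccnb2 (-0.13 ± 0.08) did not pass. Ccnb2 stood at 129 and 117 CPM in GABAergic cells and 143 and 130 CPM in astroglia, so that in each library the astroglial value was higher, while the ranges were close.

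Dividing Eomes progenitors, of the glutamatergic lineage, stood at 8968 and 9626 CPM, a range that overlaps that of the GABAergic cells. Against OPCs, 36 members were higher and none lower (10.7% of all genes called higher and 14.1% lower, median 1.12). Spc25 led with 392 and 437 CPM against 109 and 112 CPM (1.96 ± 0.13), then Bub1b with 88.3 and 138 CPM against 36.4 and 37.8 CPM (1.67 ± 0.22). Ect2, the exchange factor that starts cytokinesis, was at 80.0 and 98.8 CPM against 26.0 and 32.7 CPM (1.65 ± 0.25). Kif20a, a midzone kinesin, was at 57.9 and 70.2 CPM against 23.7 and 20.5 CPM (1.60 ± 0.28), and Ube2c at 955 and 895 CPM against 345 and 328 CPM (1.51 ± 0.12). Ndc80 (0.34 ± 0.22), Kif18b (0.89 ± 0.46), Kif20b (0.35 ± 0.24) and Anln (-0.24 ± 0.39) did not pass. Each library held 24 such cells, so this is the least precise of the lineage comparisons.

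The lineages differed less in DNA replication genes than in the members. A list of 33 S phase genes, which shares no gene with the members, summed to 3970 and 3875 CPM in dividing GABAergic cells, 3221 and 3114 CPM in dividing astroglia and 3266 and 3258 CPM in dividing OPCs. The ratio of member to S phase UMIs was thus 2.35 and 2.49 in GABAergic cells, 1.98 and 1.99 in astroglia, 2.14 and 2.06 in Eomes progenitors and 1.31 and 1.35 in OPCs. No OPC library reached the ratio of another of these lineages. Between GABAergic cells and OPCs, 17 of the 33 S phase genes were higher and 6 lower (median 0.26), with E2f1, a transcription factor of S phase entry, at 1.31 ± 0.10 and the DNA repair gene Ung at -0.68 ± 0.14. Between astroglia and OPCs, 12 were higher and 9 lower (median 0.05). Of 63 other mitotic genes, 57 were higher and none lower in GABAergic cells than in OPCs (median 0.96), led by Cdc25b, a phosphatase that activates Cdk1 (1.96 ± 0.10). Of 13 subunits and activators of the anaphase-promoting complex, 11 were higher (median 0.34), with the activator Fzr1 at 0.77 ± 0.08.

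**Figure D4:**
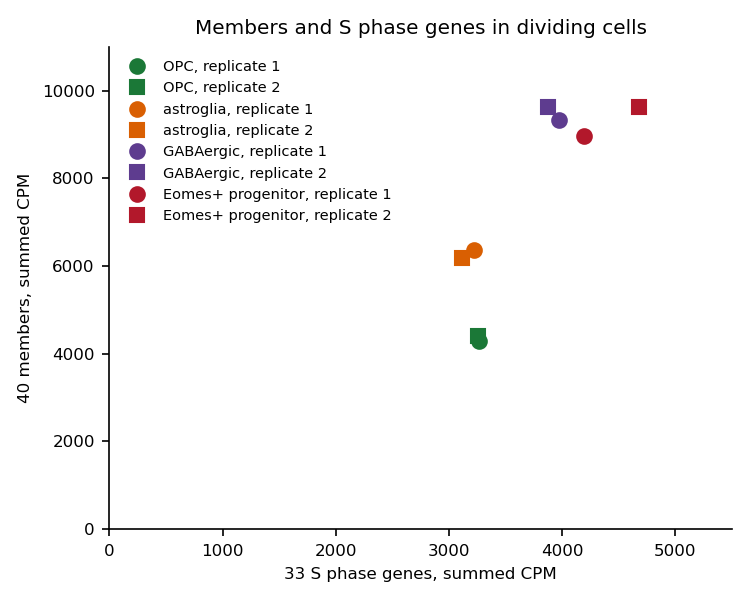
Summed CPM of the 40 members against summed CPM of 33 S phase genes in dividing cells of 4 classes, with 1 point per class and library. OPCs and astroglia lie at like S phase levels, 3114 to 3266 CPM, while their member sums are 4284 and 4399 CPM against 6371 and 6196 CPM.

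To place the members in the cycle, the dividing cells of OPCs, astroglia and GABAergic cells were each split, library by library, at the median share of S phase UMIs into S-low and S-high cells. The S phase list, which set this split, stood at 1707 and 1701 CPM in S-low OPCs and 5039 and 5115 CPM in S-high OPCs. It stood at 1149 and 988 against 4942 and 4815 CPM in astroglia, and at 1815 and 1673 against 5850 and 5854 CPM in GABAergic cells. Averaged over the lineages, 28 members were higher in S-low cells (19.4% of all 12629 genes tested) and 4 were lower (18.0%), and the median log2 fold change was 0.54. The member sum was 4937 and 4829 CPM against 3542 and 3885 CPM in OPCs, 8504 and 7680 against 4599 and 5009 CPM in astroglia, and 12949 and 13308 against 6178 and 6326 CPM in GABAergic cells. In each lineage both S-low libraries were above both S-high ones.

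Cdc20 led these differences and Cenpa followed. Cdc20 in GABAergic cells was at 400 and 354 CPM in S-low and 59.3 and 67.0 CPM in S-high cells, with an average log2 fold change of 2.26 ± 0.07 over the 3 lineages (edgeR adjusted p = 5.48e-25). Cenpa was at 954 and 913 CPM against 213 and 232 CPM in GABAergic cells and at 314 and 282 CPM against 94.7 and 96.3 CPM in OPCs (average 1.88 ± 0.04). Ube2c was at 2028 and 1823 CPM against 397 and 402 CPM in GABAergic cells and at 486 and 441 CPM against 184 and 193 CPM in OPCs (average 1.60 ± 0.04). Cenpf (1.57 ± 0.04) and Ccnb1 (1.44 ± 0.04) completed the 5 largest. Both promoter motifs were present in 71.4% of the 28 promoters of members called higher and in 64.9% of all member promoters. They were present in 57.1% of the 7 of members not called (Cdk1 among them). Neither of the 2 of members called lower, Ndc80 and Kif15, held both, and Spc24 and Aurkb had no promoter entry. A link between motifs and these differences was not tested.

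The 4 lower members were Spc24 (-0.54 ± 0.04), Ndc80 (-0.41 ± 0.06), Kif15 (-0.19 ± 0.05) and Aurkb, the kinase of the passenger complex (-0.19 ± 0.04). Spc24 in OPCs was at 164 and 134 CPM in S-low and 222 and 224 CPM in S-high cells, and in GABAergic cells at 281 and 226 CPM against 377 and 344 CPM. Spc24 was lower in S-low cells in each library of each lineage. Kif15 fell in OPCs (-0.44 ± 0.08) and astroglia (-0.34 ± 0.09) only, and stood at 0.21 ± 0.08 in GABAergic cells (edgeR adjusted p = 0.0646). Aurkb fell in OPCs and astroglia and was higher in GABAergic cells (0.24 ± 0.07), while Ndc80 stood at -0.09 ± 0.10 there (edgeR adjusted p = 0.608). With at least 5 UMIs of Mki67 and Top2a required of a dividing cell, 38 members were higher and 1 lower, and Kif15 and Aurkb turned to 0.16 and 0.12. Thinning to 5000 UMIs left 28 higher and 1 lower. When cells were instead called dividing by at least 5 UMIs of the 63 other mitotic genes, the split reversed, with none higher and 40 lower. That mark took in 2328 of 3865 and 2684 of 4001 OPCs in replicates 1 and 2, where Mki67 and Top2a took in 721 and 846. It took in 1647 of 2592 and 1690 of 2471 astroglia, and 729 of 1205 and 763 of 1185 GABAergic cells. Neurons, which are not in this split, also passed it, 410 of the 965 in replicate 1 and 522 of the 941 in replicate 2. Under these other settings, the share of all genes called was not set beside the counts of members.

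**Figure D5:**
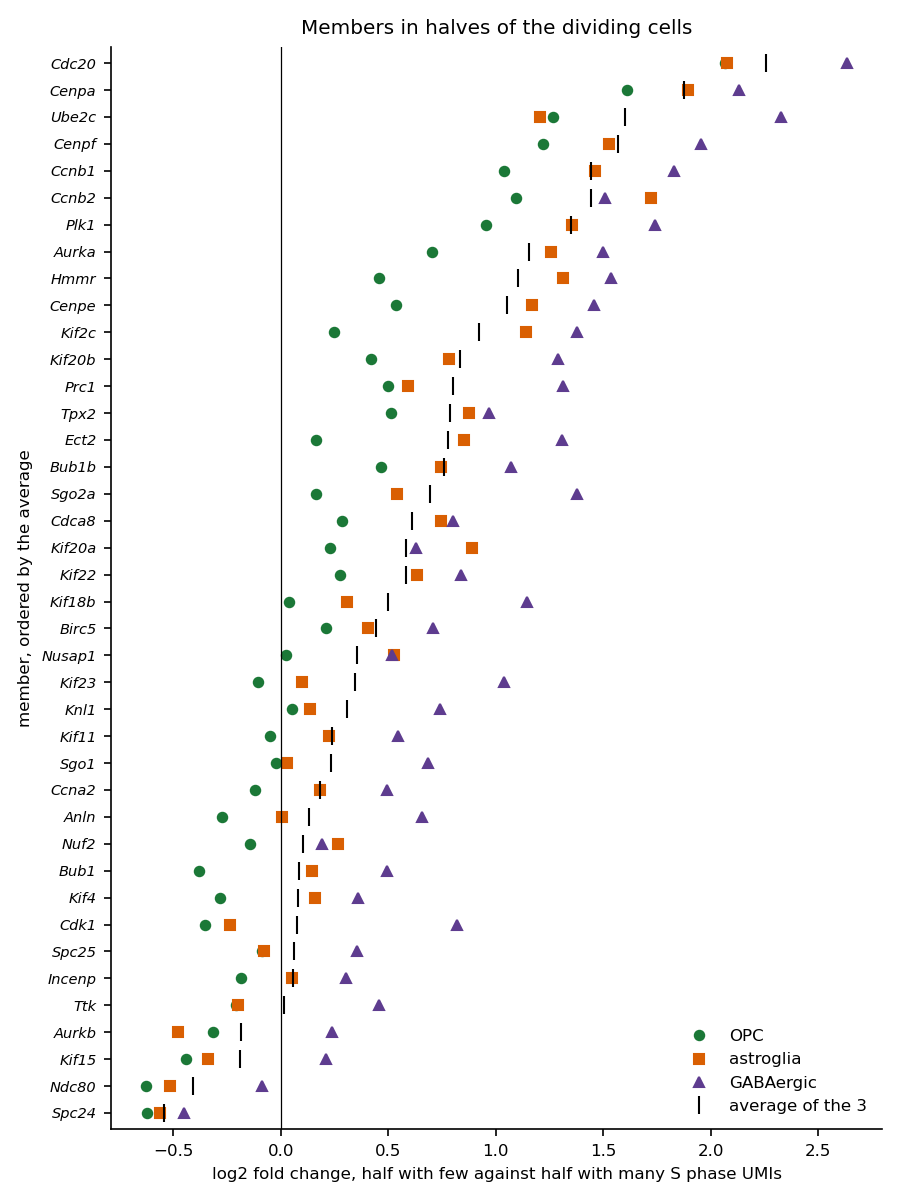
Log2 fold change of each member between S-low and S-high dividing cells, with 1 point per lineage and a bar at the average of the 3, ordered by that average. Cdc20 is at the top with 2.26 and Spc24 at the bottom with -0.54, and the GABAergic point is the rightmost for 36 members.

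The size of this difference varied with lineage. An F test of the difference between lineages called 38 of the 40 members (9.27% of all genes). In OPCs 17 members were higher and 7 lower in S-low cells (7.25% and 10.6% of all genes). In astroglia 24 were higher and 5 lower (11.5% and 13.8%), and in GABAergic cells 36 were higher and 1 lower (12.2% and 9.08%). The median over the members was 0.16 in OPCs, 0.53 in astroglia and 0.83 in GABAergic cells. The order of the lineages depends on thinning and on the mark of dividing cells. Thinned to 5000 UMIs, the medians were 0.65 in OPCs, 0.41 in astroglia and 0.77 in GABAergic cells, and no member was lower in OPCs. With 5 UMIs of Mki67 and Top2a required they were 0.46, 1.01 and 0.87. With classes from marker lists the astroglial median turned to -0.31, with 9 members higher and 20 lower. Cdk1 was at 438 and 379 CPM against 248 and 235 CPM in GABAergic cells, higher in S-low cells, and at 161 and 157 CPM against 204 and 196 CPM in OPCs, lower in S-low cells, though thinned to 5000 UMIs the OPC difference was 0.0097 (edgeR adjusted p = 0.978). The calls depend on thinning and on the model, with 8 members at 5000 UMIs per cell and 14 without the library as a block. Shares of all genes called were not set beside the counts under these other settings. Median UMIs were 12119 and 13204 in S-low and 16367 and 17239.5 in S-high astroglia. In OPCs they were 12884 and 13328 against 12708 and 13149, and in GABAergic cells 9321 and 10321 against 11506 and 11633.5. The part of depth in the lineage difference was examined by thinning alone. Thinning also drops cells under 5000 UMIs and calls classes, dividing cells and S-low cells anew, so depth by itself was not tested.

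Pearson's r of log values (UMIs scaled to 10000 per cell) was taken across dividing cells in 6 groups of lineage and library. It was averaged over groups for the 780 pairs of members. The median was 0.39, the lowest 0.12, and 358 pairs were above 0.4. Pairs of other genes were not set beside them. Cenpa and Cenpf had the highest mean (0.75, from 0.70 to 0.81 over the groups), followed by Ccnb1 and Ube2c (0.74, from 0.69 to 0.78). Cells of a group share their library and vary in depth, so these are descriptions of likeness in noisy counts.

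In the GENCODE M21 annotation of GRCm38, which is mm10, all 40 members are protein-coding genes. Exons of 10 of them overlap exons of a gene on the other strand: Ccna2 with Exosc9, Cdc20 with Elovl1, Cdca8 with 9930104L06Rik, Kif20a with Cdc23, Kif22 with Gm31749, Kif4 with Pdzd11, Nusap1 with Oip5, Prc1 with Rccd1, Sgo2a with Kctd18 and Ube2c with Tnnc2. The labels and headers do not state a strand setting for the counting, so the counts of these 10 are less certain. Ube2c lies on chromosome 2 from 164769898 to 164778822, Cdc20 on chromosome 4 from 118432901 to 118437352, Cenpa on chromosome 5 from 30666777 to 30674830, Cdk1 on chromosome 10 from 69335146 to 69352938 and Spc24 on chromosome 9 from 21755442 to 21760303.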

How the data were processed

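Raw UMI counts per gene and barcode were deposited by the authors as matrices of called cells, made with Cell Ranger 6.0.2 per the file headers. R 4.1.0, Seurat 4.1.0 and the build mm10 are listed, per the submitters' processing notes, without saying what each was used for. Members and other gene lists were chosen with earlier results of these data known. Counts were summed per library and class (at least 20 cells in both libraries) and tested with edgeR 4.0.16 in R 4.3.3 (quasi-likelihood test, TMM, filterByExpr, library as a block, Benjamini-Hochberg adjustment at 0.05). Each of the 3 models held 12 sums with 5 residual degrees of freedom. The spread edgeR uses for a gene also draws on the other genes, so p-values rest on more than that gene's own sums. Gate genes, and where they set the groups Mki67, Top2a and the S phase list, were left out of the tests. The SE is the log2 fold change divided by the square root of F. CPM is a member's UMIs per 1000000 UMIs of the class. Scrublet was run in scanpy 1.11.5, and DESeq2 1.42.0 was an alternative. The tests were also run on simulated counts in which few genes differed between groups. Many genes differed here, so that run does not vouch for these calls. The members named with values are, per role, up to 3 with the most UMIs, and per comparison up to 5 with the largest called difference in each direction and the same sign in both libraries, besides exceptions, extremes and members not called. Per library, 97091962 and 108903409 UMIs were deposited.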

Additional observations from a re-analysis of the deposited data

Results flagged for a closer look

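The difference between S-low and S-high dividing cells varied between OPCs, astroglia and GABAergic cells for 38 of the 40 members, by edgeR's F test of that difference. For 4 members it was called in opposite directions in different lineages. Cdk1 was higher in S-low cells in the GABAergic class (log2 fold change 0.82 ± 0.06 SE) and lower in OPCs (-0.35 ± 0.06) and astroglia (-0.24 ± 0.06), with an edgeR adjusted p = 4.79e-12 for the difference between lineages. Aurkb was higher in GABAergic cells (0.24 ± 0.07) and lower in OPCs (-0.32 ± 0.07) and astroglia (-0.48 ± 0.08), with adjusted p = 2.69e-05. Bub1 was higher in GABAergic cells (0.50 ± 0.10) and lower in OPCs (-0.38 ± 0.09), with adjusted p = 5.29e-05. Kif4, a chromosome-bound kinesin, was higher in GABAergic cells (0.36 ± 0.09) and lower in OPCs (-0.28 ± 0.09), with adjusted p = 0.00186. Most of these opposite calls depend on thinning and on the mark of dividing cells. Thinned to 5000 UMIs, the differences in OPCs were 0.0097 for Cdk1, 0.015 for Aurkb, 0.319 for Bub1 and 0.246 for Kif4, none of them called, and Bub1 and Kif4 were no longer called as differing between lineages (edgeR adjusted p = 0.225 and 0.777). Aurkb was still lower in astroglia (-0.87) and higher in GABAergic cells (0.39). With 5 UMIs of Mki67 and Top2a required, none of the 4 was called lower in any lineage. With classes from marker lists, Cdk1 alone of the 4 kept calls in opposite directions.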

How the results depend on the processing

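The medians against neurons and between dividing lineages kept their direction under every setting that could be run. Shares of all genes called were given above for the gates and marks first described. They were not given for the other settings, where they may differ. Counts of members called stayed within 1.5 times except as follows. With classes from marker lists, 17 were higher and 3 lower in dividing astroglia than in OPCs, 10 were lower in S-low cells on average, and 9 were higher and 20 lower in S-low astroglia. Thinning to 5000 UMIs gave 20 higher in astroglia than in OPCs, 1 lower in S-low cells on average, 0 lower in OPCs, 2 lower in astroglia, and 8 differing between lineages. Requiring 5 UMIs of Mki67 and Top2a gave 2 lower in GABAergic cells than in astroglia, and 1 lower in S-low cells on average, 2 in OPCs and 0 in astroglia. Calling cells dividing by other mitotic genes gave 0 higher and 40 lower in S-low cells on average, in OPCs and in astroglia, and 13 higher and 17 lower in GABAergic cells. Without the library as a replicate block, 14 members differed between lineages and 3 were lower in S-low astroglia, as with DESeq2 (3), and no other count moved by over 1.5 times.

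The settings for medians beyond doublets, gates, marker lists and replicates, and all those within lineages, were added after seeing the data. The median log2 fold change against neurons moved in OPCs to 1.95 without doublets, 1.75 with higher gates, 2.08 with marker lists and 1.97 when thinned, and spanned 1.62 to 1.77 when each replicate was left out. In GABAergic cells it moved to 4.06 without doublets and 4.35 when thinned, and in Eomes progenitors to 2.90 with higher gates, 3.80 with marker lists and 2.87 when thinned. In microglia it moved to 1.22 with total UMIs (36 members called), 2.22 without doublets, 2.27 with marker lists and 2.23 when thinned, and spanned 1.60 to 2.21 with a replicate left out. Between dividing GABAergic cells and OPCs it was 0.86 with 5 UMIs required, 0.94 when thinned, 1.00 with total UMIs, 1.15 without a filter, 1.23 with higher gates, 1.26 with marker lists, 2.03 with other mitotic genes, and 1.17 to 1.18 with a replicate left out. Between dividing astroglia and OPCs it was 0.42 with total UMIs, 0.15 with marker lists and 0.29 when thinned. Between GABAergic cells and astroglia it was 0.35 with 5 UMIs required, 1.11 with marker lists and 1.56 with other mitotic genes. Between Eomes progenitors and OPCs it was 1.06 with total UMIs, 1.16 with DESeq2, 1.07 without a filter, 1.17 with higher gates, 0.91 with marker lists, 0.88 with other mitotic genes, and 1.03 to 1.07 with a replicate left out. For S-low against S-high cells the average was 0.30 with marker lists, 0.80 with 5 UMIs required and -2.01 with other mitotic genes. In OPCs it was 0.22 without doublets, 0.092 with higher gates, 0.29 with marker lists, 0.65 when thinned, 0.46 with 5 UMIs, -2.44 with other mitotic genes, and 0.082 to 0.116 with a replicate left out. In astroglia it was -0.31 with marker lists, 1.01 with 5 UMIs and -3.55 with other mitotic genes. In GABAergic cells it was -0.10 with other mitotic genes, 0.77 with total UMIs and when thinned, 0.81 with DESeq2, without a filter and with marker lists, 0.85 without doublets, 0.83 with higher gates, 0.87 with 5 UMIs, and 0.84 to 0.85 with a replicate left out.

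Summed levels moved with marker lists to 1196 CPM in astroglia, 4223 in GABAergic cells, 4760 in Eomes progenitors and 366 in neurons. Higher gates gave 5887 CPM in GABAergic cells and 3459 in Eomes progenitors, and doublets left out gave 5746 CPM in GABAergic cells and 352 in neurons. Thinned to 2000 UMIs, the mean share of dividing cells was 9.78% in OPCs, 9.45% in astroglia, 30.9% in GABAergic cells, 10.4% in Eomes progenitors, 1.25% in neurons and 6.45% in microglia. Higher gates gave 19.7% in astroglia, 44.3% in GABAergic cells and 22.3% in Eomes progenitors, and doublets left out 39.9% in GABAergic cells and 2.01% in neurons.

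Some single members changed sign. With other mitotic genes as the mark, the S-low difference was -0.89 for Cdc20, -0.96 for Cenpa, -1.56 for Ube2c, -1.08 for Cenpf and -1.46 for Ccnb1, and with 5 UMIs required 0.16 for Kif15 and 0.12 for Aurkb. Between GABAergic cells and astroglia, Ccnb2 was 0.39 with marker lists and 0.77 with other mitotic genes, Nuf2 -0.14 and Plk1 -0.18 with 5 UMIs required, and Nuf2 -0.036 to 0.154 with a replicate left out. Between astroglia and OPCs, Ndc80 was -0.23, Kif18b -0.37 and Ttk -0.016 with marker lists, Ndc80 -0.16 and Kif18b -0.20 when thinned, and Kif18b -0.015 scaled to total UMIs. With a replicate left out, Ndc80 spanned -0.0083 to 0.258 and Ttk -0.076 to 0.520, both below 0 without replicate 1. Anln in Eomes progenitors against OPCs was 0.65 with marker lists. The causes were not tested. Dividing Eomes progenitors gave no value without doublets, when thinned to 5000 UMIs or with 5 UMIs required. Replicate 1 then held 19, 16 and 19 such cells, under the 20 required in both libraries, and replicate 2 held 21 each time. DESeq2 was not run for the difference between lineages. With 2 libraries, the SDs measure only the spread between them. The tests measure only how far differences between groups of cells vary from 1 library to the other.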
